A study of Mus musculus with 3 samples.

Results

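Coagulation and complement factors are the blood proteins that form clots and mark microbes for destruction, and most of them are made by hepatocytes. The 35 genes described here were chosen by name as factors made by the liver, 17 of coagulation and fibrinolysis and 18 of complement. Events are stretches of transcript structure such as a first exon, a last exon, a skipped exon or a retained intron. An event belonged to a gene when the tables gave it that gene's Ensembl identifier, which held for 171 of 71716, 174 of 74243 and 157 of 74236 events in replicates 1, 2 and 3, and for 31 of the 35 genes. C1ra, C1s1, Cfb and Klkb1 had no event under their own identifier. By position their events were in the tables under C1rb with 2 events, C1s2 with 7, C2 with 19 and Cyp4v3 with 1, and the 5 sense events of C4b stood under C4a. With events placed by position, all 35 genes had a value.

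The samples were 3 RNA sequencing libraries of mouse liver, numbered as replicates 1 to 3. Their labels give them as WT (wild type), healthy and male, of the inbred strain C57BL/6. They form the normal group of a series on liver cancer, and tumours were not analysed here. No age, treatment or genetic change was given for them. Whether the replicates were separate animals is not stated, so the spread between them can be technical in part. With 1 group there was no contrast to test, and a sign-flip test over 3 libraries cannot go below a two-sided exact p of 0.25. Values are FPKM, fragments divided by transcript length and sequencing depth. A gene's level is a lower bound from the events listed for it, and comparisons of levels between genes carry that limit. Library values follow the order of replicates 1, 2 and 3, and a mean is given ± SD (n = 3). Coordinates refer to GRCm38.

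Sex-linked genes went against the label male in all 3 libraries. Xist, a noncoding RNA of female cells that shuts down one X chromosome, had 39.6, 34.2 and 38.2 FPKM, and no event lay inside the 4 Y-linked genes looked up (Ddx3y, Uty, Kdm5d and Eif2s3y). The label liver matched the hepatocyte markers, 8 of 8 of which had a value, with sums of 36004, 41126 and 39261 FPKM. All 7 markers of Kupffer cells, the resident macrophages of liver, had a value, with sums of 44.1, 87.4 and 82.7 FPKM. Of 6 platelet and megakaryocyte markers 4 had a value, all under 1 FPKM, and Gp1ba and Gp9 were not listed. Erythroid markers, 6 of 7 with a value and Slc4a1 not listed, summed to 383, 1033 and 308 FPKM.

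In the coagulation cascade, zymogens are cut 1 after another into active proteases until thrombin converts fibrinogen to fibrin, factor XIII cross-links the clot and plasmin dissolves it. Several zymogens carry vitamin K-dependent residues that bind them to membranes, and cofactors such as factor V speed up each step. Complement runs through the classical, lectin and alternative pathways, which meet at C3 and end in a pore built from the terminal components. Many of these proteins are also acute-phase proteins, whose synthesis in liver changes with inflammation.

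The genes were abundant as a whole. The median over the 35 of mean log2(FPKM + 1) was 6.13, against 2.07 over the 13164 genes with a value and 2.77 over the 9605 of them that averaged 1 FPKM or more. Levels ran over a wide range, with 5 of the 35 at a mean of at least 1000 FPKM, 16 at 100 FPKM or more and 1 under 10 FPKM. Of all 13164 genes, 7 of the 100 most abundant were among the 35. They held 2.91, 3.55 and 3.63% of the summed gene FPKM of the libraries. The order by mean began with Fgg, Fga, C3, Kng1 and Fgb, went on with Vtn, Plg, Mbl2, Cfi, Cfb and F2, and ended with C2, F11, Pros1 and C6. Of 34 neighbouring pairs in that order, 7 had ranges that did not overlap between the libraries: Fgb over Vtn, Vtn over Plg, Plg over Mbl2, Mbl2 over Cfi, F2 over C8g, F12 over F10, and Pros1 over C6. For the other neighbours the ranges overlapped. Within each library, C4bp was still above C1ra, F13b above F5 and Klkb1 above F7. For the rest the order changed between libraries. Each gene's values are shown in the plot of levels by role.

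**Figure D1:**
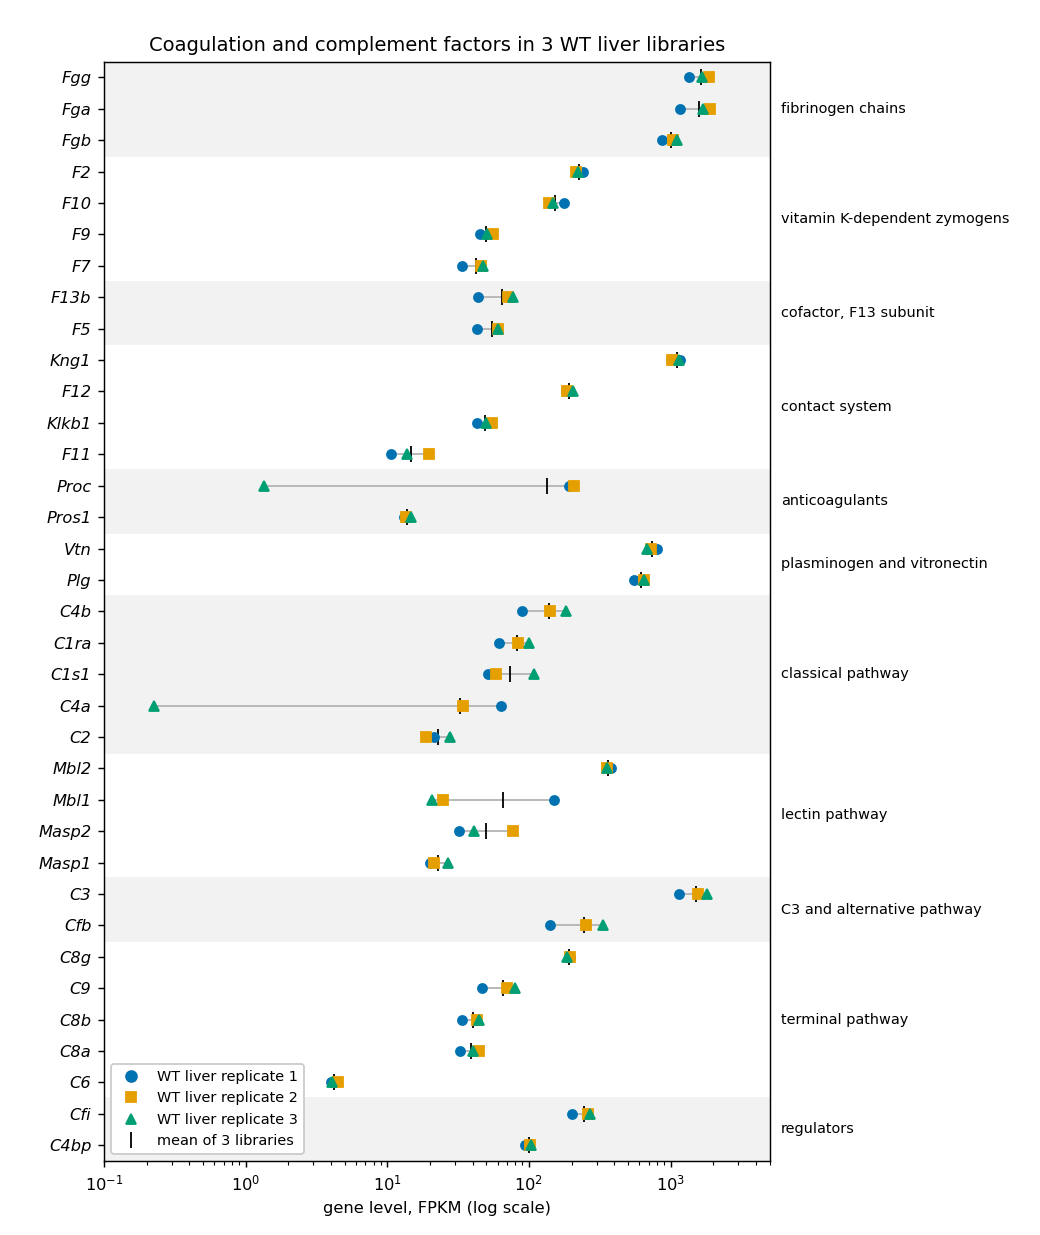
Gene level in FPKM on a log axis for the 35 genes, grouped by role, in each of the 3 WT liver libraries, with the mean as a vertical tick. Fibrinogen chains, C3 and Kng1 lie near or above 1000 FPKM, and Proc, C4a and Mbl1 have the widest gaps between libraries.

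Fibrinogen, the precursor of fibrin, is built from pairs of alpha, beta and gamma chains made by Fga, Fgb and Fgg. Fgg had 1353, 1861 and 1678 FPKM in the 3 libraries (1631 ± 257). Fga had 1157, 1904 and 1705 FPKM (1589 ± 387). Fgb had 866, 1037 and 1106 FPKM (1003 ± 124). All 3 chains were lowest in replicate 1, and Fgb was the lowest chain in every library. Within a library, the Fga level was 1.34, 1.84 and 1.54 times that of Fgb (1.57 ± 0.25), and the Fgg level 1.56, 1.79 and 1.52 times (1.62 ± 0.15). Fga and Fgg were close to each other, at a ratio of 0.965 ± 0.095. The genes stand next to each other on chromosome 3, within 42.1 kb, with Fgg and Fga on the plus strand and Fgb on the minus strand.

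The promoters of the fibrinogen chains are shown because the chains assemble in equal numbers. Chain levels were lowest in replicate 1, as for 25 of the 35 genes (71.4%), against 37.5% of all genes at 1 FPKM or more. Each sequence holds 250 bases before and 50 bases from the annotated start, from RefSeq on GRCm38.p6, written 5′ to 3′ in the direction of the gene. Capitals mark matches, on either strand, to CTGGGA, known as the core of an acute phase element, and to GTTAAT, a stretch of the site of the liver factor HNF1.
Fgg promoter, chr3:83007474-83007773, plus strand: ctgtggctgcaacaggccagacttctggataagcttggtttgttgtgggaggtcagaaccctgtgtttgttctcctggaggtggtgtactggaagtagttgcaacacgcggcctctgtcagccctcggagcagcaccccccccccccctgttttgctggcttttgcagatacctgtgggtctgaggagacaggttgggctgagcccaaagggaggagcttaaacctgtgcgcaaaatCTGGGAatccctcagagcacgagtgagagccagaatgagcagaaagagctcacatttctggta
Fga promoter, chr3:83025903-83026202, plus strand: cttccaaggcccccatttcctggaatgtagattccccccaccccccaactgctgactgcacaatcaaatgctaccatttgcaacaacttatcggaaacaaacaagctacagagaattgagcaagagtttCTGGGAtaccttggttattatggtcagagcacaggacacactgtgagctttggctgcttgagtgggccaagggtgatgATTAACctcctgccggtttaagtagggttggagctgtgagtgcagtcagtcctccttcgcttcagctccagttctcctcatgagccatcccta
Fgb promoter, chr3:83049814-83050113, minus strand: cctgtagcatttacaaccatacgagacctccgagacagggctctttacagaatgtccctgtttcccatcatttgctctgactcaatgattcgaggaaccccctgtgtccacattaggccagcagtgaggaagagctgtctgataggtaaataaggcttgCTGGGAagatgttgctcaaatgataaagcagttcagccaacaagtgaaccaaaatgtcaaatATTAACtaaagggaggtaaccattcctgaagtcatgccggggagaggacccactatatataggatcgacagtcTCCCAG
Positions count from 0 at the annotated start. GTTAAT began at position -43 in Fga and at position -29 in Fgb, both on the opposite strand. No GTTAAT was in the Fgg window. CTGGGA began at position -121 in Fga, at -91 and on the opposite strand at 44 in Fgb, and at -13 in Fgg. The listed first exons of Fgg and Fgb began at the annotated start itself, and that of Fga at position -77, so its promoter window holds transcribed bases. A promoter was in the table for 26 of the 35 genes, with 28 windows. GTTAAT was in 9 of these 28 (32.1%) and in 7.10% of all 32851 promoters of the table. CTGGGA was in 17 of 28 (60.7%), against 31.8% of all, and TATAAA, the TATA box, in 3 of 28 (10.7%), against 13.6%. The windows with CTGGGA belong to 16 of the 26 genes, since the overlapping windows of C1s1 hold the same site. Both strands were searched, no match overlapped another in the 3 windows shown, and a match describes letters in these windows only.

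Among the vitamin K-dependent zymogens, prothrombin was the most abundant. F2, which encodes it, had 239.7, 213.8 and 223.3 FPKM (226 ± 13). F10, which encodes factor X, the protease that converts prothrombin, had 176, 138 and 147 FPKM (154 ± 20). The ratio of F2 to F10 was 1.48 ± 0.10. F9, whose loss causes haemophilia B in human, had 44.8, 55.3 and 50.2 FPKM (50.1 ± 5.3). F7, which starts clotting together with tissue factor, had 33.5, 45.6 and 47.6 FPKM (42.3 ± 7.6). F7 and F10 are neighbours on chromosome 8, within 30.6 kb on the plus strand, and F10 was 5.26, 3.02 and 3.08 times F7. Tissue factor itself, F3, averaged 2.09 FPKM.

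F5, the cofactor that speeds the conversion of prothrombin, had 43.2, 60.5 and 61.0 FPKM (54.9 ± 10). F13b, the carrier subunit of factor XIII, had 43.5, 71.1 and 77.6 FPKM (64.1 ± 18). Both were lowest in replicate 1. F13a1, which encodes the catalytic subunit of factor XIII and is known from macrophages and platelets, was not listed.

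The contact system starts clotting on negatively charged surfaces and releases bradykinin, a peptide that widens vessels, from kininogen. Kng1, which encodes kininogen, had 1171, 1019 and 1146 FPKM (1112 ± 82), the highest of this group. F12, whose active form cuts prekallikrein, had 183, 184 and 205 FPKM (191 ± 12). Klkb1, which encodes prekallikrein, had 43.0, 54.7 and 49.9 FPKM (49.2 ± 5.9), resting on 1 last exon that the tables list under Cyp4v3. F11, a near relative of Klkb1 and its neighbour on chromosome 8 within 53.7 kb, had 10.6, 19.8 and 13.7 FPKM (14.7 ± 4.7). Klkb1 was above F11 in every library, by 4.05, 2.76 and 3.65 times.

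The 2 anticoagulants differed in how steady they were. Pros1, which encodes protein S, had 13.1, 13.5 and 14.6 FPKM (13.7 ± 0.79). Proc, which encodes protein C, the protease that cuts activated factors V and VIII, had 193, 207 and 1.35 FPKM, with replicate 3 far below replicates 1 and 2. In replicate 3 its only last exon and its only first exon were both listed at 1.35 FPKM. Its main first exon also differed between libraries. The exon that carried 205 FPKM in replicate 2 had 55.9 FPKM in replicate 1 and was not listed in replicate 3. Another one, outside the annotated first exons, had 135 FPKM in replicate 1 alone. Hepatocyte markers summed to 36004, 41126 and 39261 FPKM. The part of hepatocyte content or of any other factor in the Proc value was not tested.

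Plasminogen, the precursor of plasmin, and vitronectin, a plasma and matrix protein that stabilises an inhibitor of plasminogen activators, were both abundant. Plg had 548, 646 and 652 FPKM (616 ± 59), and Vtn had 805, 725 and 680 FPKM (737 ± 64). Vtn was above Plg in every library, and it was highest in replicate 1, where Plg was lowest. The Plg value rests on its last exon, since its only listed first exon, outside the annotation, had 66.3 FPKM in replicate 2 and was not listed in the others.

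The classical pathway is started by C1q, with the proteases C1r and C1s, which cut C4 and C2. C1ra, which encodes C1r, had 61.5, 84.3 and 99.5 FPKM (81.8 ± 19), and its neighbour C1s1 within 30.0 kb had 51.5, 58.8 and 109 FPKM (73.1 ± 31). Both were highest in replicate 3, and C1ra was lowest in replicate 1. For C1s1 both forms of an intron summed to 58.9 FPKM in replicate 1, above that library's level and close to the 58.8 FPKM of replicate 2. The ratio of C1ra to C1s1 was 1.18 ± 0.26. C2 had 21.2, 18.9 and 27.9 FPKM (22.7 ± 4.7). C1q is made by macrophages, and its chains C1qa, C1qb and C1qc averaged 27.1, 24.4 and 11.9 FPKM. C1ra and C1s1 each have a near-identical copy, C1rb and C1s2, so reads may be divided between the copies. By position C1rb averaged 2.59 FPKM and C1s2 was not listed.

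C4 is encoded in mouse by C4b and by its near-identical copy C4a, also known as the sex-limited protein Slp, whose expression in many strains depends on androgens. C4b had 89.8, 142 and 182 FPKM, and C4a had 64.0, 34.2 and 0.227 FPKM, from first and last exons. Internal events gave another order. The spliced form of an intron near the 3′ end of C4b had 205, 209 and 179 FPKM (198 ± 16). By that event C4b was not lowest in replicate 1. An intron near the 5′ end of C4a was retained at 8.09, 13.2 and 23.6 FPKM, which in replicate 3 is far above the level from the ends. With internal events placed by position, the levels were 205, 209 and 182 FPKM for C4b and 64.0, 34.2 and 23.6 FPKM for C4a. In replicates 1 and 2 the C4a value from the ends rests on the first exon of a short annotated transcript with a retained intron, near the 3′ end, and not on the full-length gene. In replicate 3 that exon had 0.0948 FPKM, and the value is that of the only listed last exon. No source used here says how reads were divided between the copies, so the separate values are uncertain. Xist, which went against the label male, had 34.2 to 39.6 FPKM over the libraries, and no library had an event in the Y-linked genes. The part of sex in the C4a values was not tested.

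The lectin pathway is started by mannose-binding lectins on sugars, with the proteases MASP-1 and MASP-2. Mbl2 had 377, 357 and 354 FPKM (363 ± 13), a range among the narrowest of the 35 genes. Mbl1 had 150, 24.7 and 20.7 FPKM, with replicate 1 far above the others and 7.25 times the lowest. The ratio of Mbl2 to Mbl1 was therefore 2.51 in replicate 1, against 14.4 and 17.1 in replicates 2 and 3. First and last exon of Mbl1 gave the same values. Masp1 had 20.1, 21.4 and 26.7 FPKM (22.7 ± 3.5), and Masp2 had 32.0, 76.7 and 40.7 FPKM (49.8 ± 24), with replicate 2 highest.

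The promoters of both lectin genes are shown because one gene was steady while the other was not. Windows are from RefSeq on GRCm38.p6, 250 bases before and 50 bases from the annotated start, and capitals mark the longest stretch that both share on the same strand.
Mbl1 promoter, chr14:41151206-41151505, plus strand: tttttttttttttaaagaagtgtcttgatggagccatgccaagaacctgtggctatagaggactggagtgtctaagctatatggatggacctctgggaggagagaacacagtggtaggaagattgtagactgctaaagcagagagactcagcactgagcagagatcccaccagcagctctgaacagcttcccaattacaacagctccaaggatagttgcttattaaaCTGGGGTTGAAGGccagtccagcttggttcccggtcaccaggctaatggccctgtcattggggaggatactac
Mbl2 promoter, chr19:30232678-30232977, plus strand: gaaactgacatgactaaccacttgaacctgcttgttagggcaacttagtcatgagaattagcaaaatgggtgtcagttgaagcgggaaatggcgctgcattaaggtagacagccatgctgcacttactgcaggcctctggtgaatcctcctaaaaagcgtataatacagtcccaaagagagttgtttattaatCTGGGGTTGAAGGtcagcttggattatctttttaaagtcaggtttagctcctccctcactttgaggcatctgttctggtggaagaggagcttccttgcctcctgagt
The shared stretch, CTGGGGTTGAAGG, is 13 bases long and begins at position -23 in Mbl1 and at position -57 in Mbl2. It was in 3 of the 32851 promoters of the table (0.00913%), counting both strands. These include the windows of Mbl1 and Mbl2, from which the stretch was chosen. How long a stretch other pairs of promoters share was not examined. The listed first exons of both genes began at the annotated start.

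C3, on which all pathways converge, and factor B, the protease of the alternative pathway, ranked the libraries in the same way. C3 had 1143, 1572 and 1821 FPKM (1512 ± 343). Cfb had 141, 255 and 334 FPKM (243 ± 97). Both were lowest in replicate 1 and highest in replicate 3, as were C1ra, Fgb, Plg, Cfi, C9 and others of the 35 genes. Of the 35 genes, 25 were lowest in replicate 1 and 18 highest in replicate 3. Over the 9605 genes at 1 FPKM or more, these counts were 3606 and 3026. Cfb and C2 are neighbours on chromosome 17, in a 170-kb stretch with C4a and C4b on the minus strand, and Cfb was 6.63, 13.5 and 11.9 times C2. Cfd, which encodes factor D and is known from fat cells, averaged 0.245 FPKM.

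The terminal components form the membrane attack pore. C8 consists of 3 chains. C8a had 32.8, 44.3 and 40.0 FPKM (39.0 ± 5.8). C8b, its neighbour on chromosome 4 within 110 kb, had 33.6, 43.2 and 44.6 FPKM (40.4 ± 6.0). C8a and C8b were at nearly the same level, with a ratio of C8b to C8a of 1.04 ± 0.072. C8g, a lipocalin from another chromosome that binds the alpha chain, had 194, 195 and 184 FPKM (191 ± 5.7), which is 4.97 ± 0.81 times C8a. C9, which polymerises into the pore, had 46.6, 69.8 and 80.0 FPKM (65.5 ± 17). C6 had 4.02, 4.47 and 4.07 FPKM (4.19 ± 0.24), the lowest mean of the 35. Hc, which encodes C5, averaged 147 FPKM and C7 averaged 0.601 FPKM.

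Both regulators were lowest in replicate 1. Cfi, the protease that inactivates C3b and C4b, had 202, 261 and 272 FPKM (245 ± 38), and C4bp, its cofactor on C4b, had 93.6, 103 and 104 FPKM (SD 5.59, n = 3). In human plasma C4bp binds protein S. The ratio of C4bp to Pros1 here is one of RNA levels in mouse liver, at 7.16, 7.61 and 7.11 (7.29 ± 0.27). Binding of the mouse proteins was not examined.

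**Figure D2:**
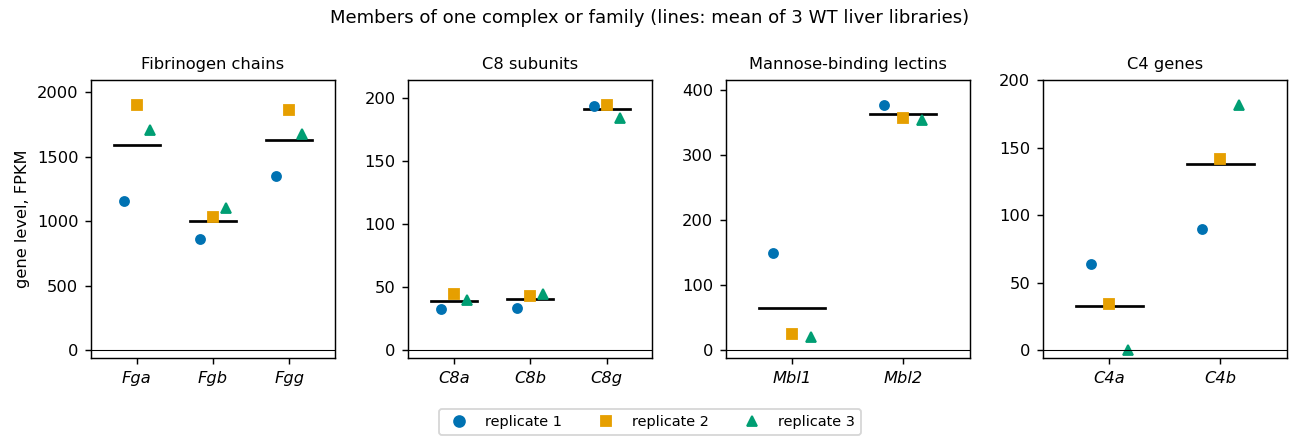
Gene level in FPKM for members of the same complex or family in each WT liver library, with the mean as a line. The fibrinogen chains are all lowest in replicate 1, C8g lies above C8a and C8b in every library, and Mbl1 and C4a are highest in replicate 1.

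How steady the genes were differed widely. The median coefficient of variation over the 35 was 15.4%, against 18.2% over all genes that averaged 1 FPKM or more and 15.2% over genes at least as abundant as C6. A coefficient under 10% was found for 10 of the 35 (28.6%), against 21.7% of all genes at 1 FPKM or more: C8g, Mbl2, C4bp, Pros1, F2, C6, F12, Kng1, Vtn and Plg. With internal events placed by position C4b joined them, at 11 of 35 (31.4%), against 21.6%. Proc, C4a and Mbl1 were over 50%, at 85.9, 97.2 and 113%. The levels of C4a and C4b from first and last exons, summed within each library, were 154, 176 and 182 FPKM, with a coefficient of 8.74%. That order of libraries holds for these levels only. With internal events placed by position, C4b had 205, 209 and 182 FPKM and C4a 64.0, 34.2 and 23.6 FPKM. Both were then lowest in replicate 3, and the coefficient of their sum was not computed. For 7 of the 35 (20.0%) the highest library was at least 2 times the lowest, close to the 18.8% of all genes at 1 FPKM or more and above the 11.1% of genes at least as abundant as C6. These were Proc, C4a, Mbl1, Masp2, Cfb, C1s1 and C4b. With internal events placed by position, C1s1 and C4b no longer differed 2-fold, which left 5 of 35 (14.3%), against 18.6% of all genes. From the levels as reported, the count was 2 without replicate 1, 6 without replicate 2 and 2 without replicate 3. Leaving out a library cannot raise such a count, and the shares over all genes were not computed for these settings.

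Replicate 1 was the lowest library for 25 of the 35 genes (71.4%), against 37.5% of all genes at 1 FPKM or more. With internal events placed by position it was lowest for 23 (65.7%), without C1s1 and C4b, against 37.3%. In replicate 1, 26 of the 35 (74.3%) were below their own mean on the log2 scale, against 50.3% of all genes at 1 FPKM or more. The median deviation was -0.18 in replicate 1, 0.083 in replicate 2 and 0.086 in replicate 3, against -0.0022, 0.012 and 0.0081 over all genes. By role, the median deviation in replicate 1 was -0.26 for the fibrinogen chains, -0.54 for C3 and Cfb and -0.23 for the terminal components. It was -0.41 for F5 and F13b, -0.38 for the classical pathway, -0.18 for the regulators and -0.12 for the contact system. The lectin pathway had -0.051, the vitamin K-dependent zymogens -0.032, and plasminogen with vitronectin -0.016. The anticoagulants Proc and Pros1 went the other way, at 1.01, though Pros1 itself was lowest in replicate 1. The 10 genes that were not lowest there were F2, F10, Proc, Kng1, Vtn, C2, C4a, C8g, Mbl1 and Mbl2. Kupffer cell markers were also lowest in replicate 1, 7 of 7 with a median deviation of -0.62, and hepatocyte markers had -0.093 there, with 4 of 8 lowest. Endothelial markers had -0.23, with 5 of 7 below their own mean. Cholangiocyte and stellate cell markers lay the other way, each with a median deviation of 0.21 and 4 of 5 highest in replicate 1. Of the 5 cholangiocyte markers only 2 averaged 1 FPKM or more. Dcn, the most abundant stellate cell marker, was lowest in replicate 1, at 61.4, 75.5 and 76.9 FPKM. The part of any of these cell types in the lower levels was not tested, and in a bulk sample fewer cells of a type and less RNA per cell cannot be told apart. Without replicate 1 the median coefficient of variation of the 35 genes was 7.24%, against 12.7% over all genes at 1 FPKM or more. Over genes at least as abundant as C6 it was not computed without replicate 1. With all libraries, that set had 15.2% and the 35 genes 15.4%.

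**Figure D3:**
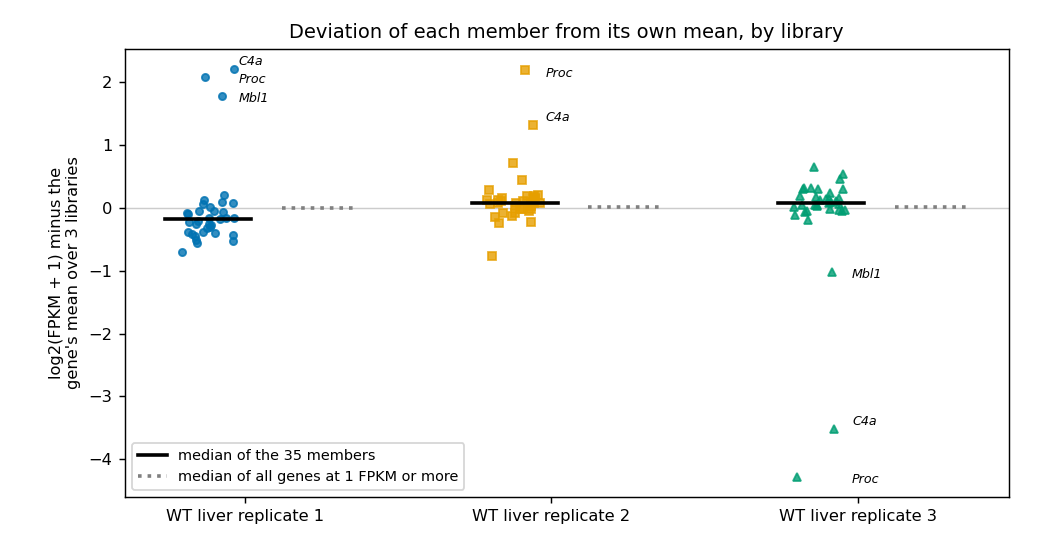
Deviation of log2(FPKM + 1) from the gene's own mean for each of the 35 genes by WT liver library, with the median of the 35 (solid) and of all genes at 1 FPKM or more (dotted). The median of the 35 is -0.18 in replicate 1, and Proc, C4a and Mbl1 lie far from the rest.

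Coagulation and complement genes overlapped in both level and spread. The 17 of coagulation and fibrinolysis had a median log2(FPKM + 1) of 7.26 and a median coefficient of variation of 12.3%, and the 18 of complement had 6.08 and 21.7%. No test was made of either difference. The remaining known genes of both systems were looked up as well. Of 28 such coagulation and fibrinolysis genes, 23 had a value and 17 averaged 1 FPKM or more, with Serpinc1 (antithrombin) at 451 FPKM, Hrg at 378 FPKM and Serpinf2 (antiplasmin) at 310 FPKM highest. F13a1, Thbd, Serpina5, F2r and F2rl1 were not listed. For complement, 24 of 29 had a value and 20 averaged 1 FPKM or more, with Clu at 574 FPKM and Serping1 (C1 inhibitor) at 298 FPKM highest. C1s2, C3ar1, C5ar1, Fcnb and Cpn2 were not listed. A gene that is not listed cannot be called silent, since 55.3% of protein-coding genes of the annotation had a value at all.

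Splice forms were compared as shares within a library. Of the 35 genes 17 had an exact pair of forms that summed to at least 1 FPKM in every library, 34 pairs in all. In 1 of the 34 pairs (2.94%) the minor form held at least 10% in every library, against 5.89% of 12884 pairs over all genes. That pair was the retention of a 70-base intron of C8g, at 55.3, 61.9 and 69.2% (62.1 ± 7.0). The retained form had 106 FPKM and the spliced form 85.9 FPKM in replicate 1, so the retained form was the larger one there, as in the other libraries. The intron is shown in capitals with 12 bases of the exon on each side, read from an annotated GENCODE M21 transcript that holds it.
C8g intron, chr2:25498932-25499025, minus strand: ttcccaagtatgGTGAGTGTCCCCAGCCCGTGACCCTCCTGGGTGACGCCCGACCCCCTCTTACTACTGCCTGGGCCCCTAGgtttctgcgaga
It begins with GT and ends with AG, the usual ends of an intron, and its length is not a multiple of 3.

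Kng1 is known for a high molecular weight form of 661 codons and a low molecular weight form of 432 codons. No event set these forms apart, and no last exon of Kng1 was listed. The tables did separate a shorter annotated form of 480 codons, in which 543 bases of the last exon are spliced out. Its share was 13.3, 12.7 and 12.8% (12.9 ± 0.29), with 156 of 1171 FPKM in replicate 1, and varied little between libraries. The 78-base exon in capitals codes for bradykinin and precedes the splice. It is shown with 12 bases on each side as joined in this shorter form, from GENCODE M21.
Kng1 exon, chr16:23078974-23079051, plus strand: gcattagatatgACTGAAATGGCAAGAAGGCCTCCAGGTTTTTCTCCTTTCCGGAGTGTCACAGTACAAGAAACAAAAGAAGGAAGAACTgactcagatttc

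The ends of the fibrinogen transcripts gave 2 more steady shares. The annotated transcript of 789 codons codes for the extended alpha chain and ends in an exon that the transcript of 557 codons lacks. That exon had 315, 494 and 435 FPKM, or 27.2, 25.9 and 25.5% of the first exons (26.2 ± 0.90). The spliced last exon of Fgg had 1092, 1557 and 1411 FPKM, or 80.7, 83.7 and 84.1% of the first exons (82.8 ± 1.8). The remaining 17.2 ± 1.8% did not carry it. An annotated form that reads into the last intron, known in human as gamma prime, lacks that exon, and its own last exon was not listed.

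Masp1 makes MASP-1 from a distal last exon and MASP-3, a protease that activates factor D, from a nearer one. The MASP-1 last exon had 14.2, 18.5 and 18.0 FPKM, and the MASP-3 last exon had 5.87, 2.88 and 8.66 FPKM. The MASP-3 share was 29.2, 13.5 and 32.5% (25.0 ± 10). The last exon of the form that codes for the inhibitor MAp44 was not listed. Masp2 makes the protease MASP-2, with 685 codons, and MAp19, a short protein of 185 codons without the protease domain. The last exon of MAp19 had 27.1, 64.7 and 34.3 FPKM, or 84.7, 95.5 and 84.2% of the listed last exons (88.1 ± 6.4). The last exon of full-length Masp2 was not listed, so this share is not a ratio of the 2 proteins' messages. An annotated transcript with a retained intron has its last exon at the same position. The coding end of MAp19 is given in capitals after 12 bases of the exon before it, from GENCODE M21, and its last 3 bases are the stop codon.
Masp2, end of MAp19, chr4:148604256-148604269, plus strand: acacgtgctcagAGCAGAGCCTCTAA

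F2 and F10 also had alternative ends. Of the last exons of F2, one of 3655 bases lay outside the annotated gene, downstream of it on the minus strand, within Ckap5, a gene on the plus strand. Whether the libraries kept strand is not stated, so reads of both genes cannot be told apart there. It had 182, 200.2 and 195 FPKM, or 75.9, 93.6 and 87.2% of the listed last exons, and the annotated one had 56.8, 11.9 and 27.4 FPKM. The downstream first exon of F10 had 18.7, 22.4 and 30.3 FPKM, or 10.6, 16.3 and 20.6% of its first exons (15.8 ± 5.0). The second exon of F10 also had 2 annotated starts, 190 bases apart. The longer exon had 158, 0.79 and 0.219 FPKM, and the shorter one was not listed in replicate 1 and had 115 and 116 FPKM in the others.

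**Figure D4:**
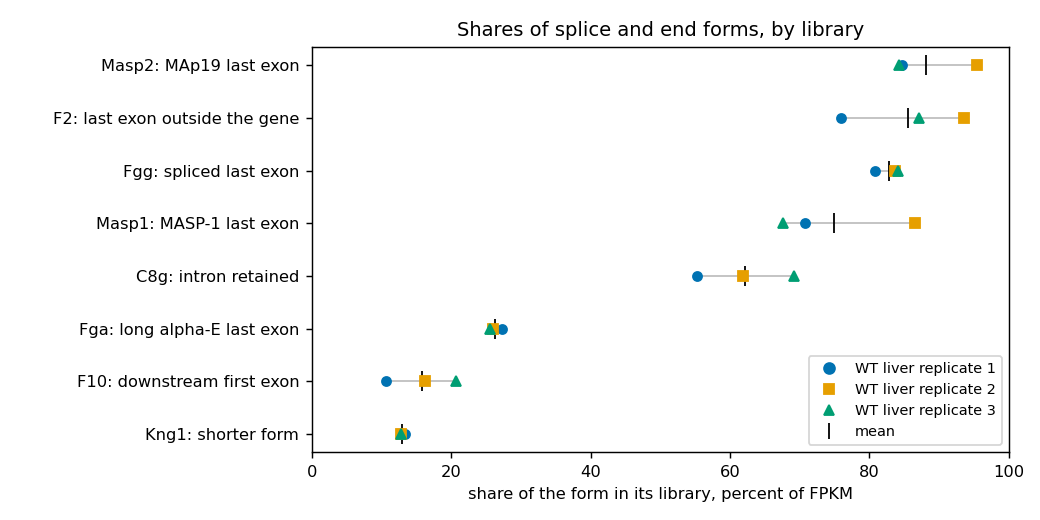
Share of a splice or end form in percent of FPKM within each WT liver library, with the mean as a vertical tick. Kng1, Fga and Fgg shares lie within a few percent of each other over the libraries, and the shares of Masp1, Masp2, F2, F10 and C8g are spread wider.

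Some other minor forms are given with their values in each library, and were chosen for description after their values were seen. Skipping of a 94-base exon of C8a, which is not a multiple of 3, was at 0.00496, 15.8 and 11.8%, and retention of a 1128-base intron of C8a was at 9.42, 13.9 and 11.2%. Skipping of a 21-base exon of Cfi, a multiple of 3, was at 8.37% in replicate 2 and was not listed in the others. In F13b an exon 21 bases longer, at its start, was not listed in replicate 1 and had 8.16 and 8.12 FPKM in replicates 2 and 3, against 62.9 and 69.4 FPKM of the usual exon. In F5 a 162-base segment inside the exon of the B domain, the part that is cut out when factor V is activated, was spliced out in replicate 1 alone, at 7.83 of 43.2 FPKM.
The exons and the segment are shown in capitals, with 12 bases of the joined transcript on each side, from GENCODE M21, since their lengths and letters set what each form lacks.
C8a exon, chr4:104865454-104865547, minus strand: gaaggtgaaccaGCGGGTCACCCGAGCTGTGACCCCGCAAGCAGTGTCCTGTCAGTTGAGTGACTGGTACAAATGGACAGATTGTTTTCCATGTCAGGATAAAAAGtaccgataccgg
Cfi exon, chr3:129862130-129862150, plus strand: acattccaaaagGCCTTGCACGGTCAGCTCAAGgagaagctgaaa
F5 segment, chr1:164193600-164193785, plus strand: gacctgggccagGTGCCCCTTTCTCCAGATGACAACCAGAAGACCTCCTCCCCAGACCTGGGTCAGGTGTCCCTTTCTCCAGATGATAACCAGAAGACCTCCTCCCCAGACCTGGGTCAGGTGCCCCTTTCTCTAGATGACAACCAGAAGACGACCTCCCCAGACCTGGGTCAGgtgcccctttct
The F5 segment is repetitive. Set against the same exon moved by 54 bases, 93.2% of its 162 bases were identical, against a median of 25.3% over the 38 shifts tried, so a gap of whole repeats can be placed at more than 1 position.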

How the data were processed

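RNA sequencing tables of 3 mouse liver libraries were analysed, with groups from the labels. The submitters' processing notes name HISAT2 2.0.1, cutadapt 1.9.1, DESeq2 and HTSeq 0.6.1 with the build mm9, and no roles. Which tool made the event tables was not given in any source used. The deposited values are FPKM per transcript-structure event, per the file headers, and how the authors computed it for an event is not stated. The tables hold no counts and list no event at 0, so depth is unknown and no counting interval is given. Of the first exons, 82.0, 82.2 and 82.7% matched GENCODE M21 on GRCm38 exactly, against at most 0.00564% when moved by 1000 bases.

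Identical rows (1519, 1440 and 1485) were removed. First and last exons were placed by position, then splice site, then identifier on the same strand; 3.29, 3.06 and 2.76% were placed by identifier and 2.53, 2.52 and 2.11% were not placed. A gene's level is the largest of the summed first exons, the summed last exons and, where the locus holds 1 gene, its largest internal event. It is a lower bound as far as those events belong to the gene. An alternative placed internal events inside the span of 1 gene by position and summed both forms of a pair. Log values use a pseudocount of 1, and pairs of forms needed 1 FPKM in every library. The share of a skipped exon is the skipped form over both forms, and that of an intron the retained form over both. Members, lists and rules were chosen with earlier results of these data known; all 35 members are named, with events whose minor form held at least 10% in every library and events that separate forms of Kng1, Masp1 and Masp2. Other events described in the text were chosen after their values were seen. One gene of the other complement list is not reported here. Scripts ran in Python 3.11.15 with pandas 2.3.3 and numpy 2.4.6 and were tested on simulated data.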

Additional observations from a re-analysis of the deposited data

How the results depend on the processing

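All 35 genes had a value as reported, 32 with first exons alone, 29 with last exons alone and 31 with the identifier alone. The median log2(FPKM + 1) of the 35 was 6.13, and it was 5.79 with last exons alone, 6.66 with the identifier alone and 6.19 to 6.34 with a replicate left out. With last exons alone 6 genes moved by more than their spread, with Fga at 8.67 and C1s1 at 0.166 on that scale, and with first exons alone Plg did, at 2.02. With the identifier alone C2 and C4a moved up, since events of Cfb and C4b stand under their identifiers, and C4b moved to 0.378, since its own events stand under C4a. Placing internal events by position and summing both forms of a pair, an alternative chosen after seeing the data, changed 5 of the 35 levels (C2, C4a, C4b, C8a and C1s1), and C4b by more than its spread. The count of genes 2-fold apart was 7, and 2 to 6 with a replicate left out. The count with a coefficient of variation under 10% was 10, and 9 to 23 with a replicate left out. For either count, the share over all genes was not computed with a replicate left out. The median coefficient of all genes at 1 FPKM or more also fell without replicate 1, from 18.2 to 12.7%. A pseudocount of 0.1 moved Pros1 and C6. The median coefficient of variation was 15.4%, and 7.24 to 18.0% with a replicate left out, lowest without replicate 1. The lower median of replicate 1 kept its sign in every alternative with that library, at -0.13 to -0.19, while replicate 2 was at -0.024 without replicate 1. The count of pairs whose minor form held 10% in every library was 1, and 1 to 3 with a replicate left out; it stayed at 1 with 5 FPKM, with no minimum and with identical rows kept. No paired analysis was possible because all libraries belong to 1 group.

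Read counts were not in the tables, so counting error is unknown and differences between values near 0 cannot be judged. Values of near-identical copies (C4a and C4b, C1ra and C1rb, C1s1 and C1s2) are uncertain. Events were listed library by library, and a form that is not listed in a library cannot be called absent there.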

Other observations

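A few events carried the identifier of a member but lay on the opposite strand and were left out of its level. In F5 these were a last exon at 0.912 FPKM in replicate 2 and a first exon at 1.08 FPKM in replicate 3. Fga had a first exon and an internal exon at 0.357 FPKM each in replicate 1. C4b had a first and a last exon at 1.19 FPKM each in replicate 3. C4a had a first and a last exon at 0.357 FPKM each in replicate 2, the last exon beyond the annotated gene.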
